A study of Homo sapiens with 60 samples.

Results

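Glutathione, a tripeptide of glutamate, cysteine and glycine, is the main small thiol of the cell, and 9 genes of its synthesis, recycling, use and export were followed here across herbal extract treatments of SW1783 cells, an established human astrocytoma line. The genes were SLC7A11, GCLC, GCLM, GSS, GSR, GPX1, GPX4, MGST1 and ABCC1, chosen by function as a named list, with earlier results of these data known. All 9 were found among the 60675 genes of the count table, and all 9 passed the filter on low counts and are among the 17676 genes tested.

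RNA was sequenced 24 h after the cells received a 70% ethanol extract or the DMSO vehicle. Astragali Radix, astragalus root, was given at 8.8, 44 and 220 µg/mL. Cinnamomi Cortex (cinnamon bark), the herbal formulas Sibjeondaebo-tang, Palmul-tang, Sagunja-tang and Samul-tang, and Rehmanniae Radix Preparata (prepared Rehmannia root) were given at 20, 100 and 500 µg/mL, and the doses are called low, medium and high here. Each extract and dose had 3 libraries, except Rehmanniae Radix Preparata with 1 library per dose, and the vehicle group had 3 libraries. By the text of the series, the top dose was lowered for extracts that inhibited the cells below 500 µg/mL, so the high dose of Astragali Radix was chosen by its toxicity and its doses do not match those of the other extracts. The formulas are nested: the herbs of Samul-tang and those of Sagunja-tang together make Palmul-tang, which is contained in Sibjeondaebo-tang along with Cinnamomi Cortex and Astragali Radix. The labels give 0.1% DMSO for the vehicle and the text of the series gives 2%, which was not resolved, and no untreated cells were analysed here. All cells came from 1 line, and nothing states that replicates of a group came from different cultures, so a p-value covers only the spread among libraries, which may be technical.

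Total expected counts ranged from 19793387 to 37152410 per library over the 60 libraries and from 24212214 to 26167537 in the vehicle. The labels carry a code whose meaning they do not give. The code of the vehicle libraries occurs in no extract group, and for every difference from the vehicle an effect of the code and of the extract cannot be told apart. The dose trends use no vehicle library and lie within a code. Astragali Radix low replicates 1 and 2 stood apart from the other 58 libraries: transcript length and GC content accounted for 34.8% and 59.2% of the variance of their log2 deviations from the mean of the libraries outside Astragali Radix high and low, against at most 19% in any other library, and their mitochondrial shares were 5.93% and 1.38%, against 4.97% in replicate 3. Results that rest on these libraries are given with and without them. Of the markers of astrocytes and glioma lines, VIM (median 4330 CPM), CD44 (2660 CPM), SOX9 (64.8 CPM) and SLC1A3 (23.6 CPM) were present in every library and NES (5.97 CPM) at a low level, AQP1 was at 0.741 CPM, and the astrocyte markers GFAP (0.0795 CPM), S100B (0.0783 CPM), AQP4 (0) and ALDH1L1 (0) were at or near 0. Markers of endothelium and epithelium were near 0. Of the leukocyte markers, CD68 (164 CPM) and PTPRC (9.64 CPM) were present, and CD3E and AIF1 had medians of 0. Of the neuronal markers, SYT1 (36.2 CPM) and SNAP25 (22.1 CPM) were present, and RBFOX3 (0.242 CPM) and STMN2 (0.108 CPM) were near 0. MBP and MOG, which mark oligodendrocytes, were at 6.09 CPM and 0. No marker measured here is specific to this line.

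Cysteine is the limiting amino acid for glutathione, and many cells take it up in oxidised form, as cystine, through the exchanger xCT, whose light chain is encoded by SLC7A11. Glutamate-cysteine ligase, made of a catalytic subunit (GCLC) and a modifier subunit (GCLM), joins cysteine to glutamate in the rate-limiting step, and glutathione synthetase (GSS) adds glycine. Glutathione reductase (GSR) regenerates the reduced form, GPX1 and GPX4 use it to reduce peroxides (GPX4 those of membrane lipids), MGST1 is a membrane-bound glutathione transferase and peroxidase, and ABCC1 exports glutathione and its conjugates. In human cells GCLC, GCLM, SLC7A11, GSR, MGST1 and ABCC1 are known targets of the transcription factor NRF2, which binds antioxidant response elements. SLC7A11 is also a target of ATF4.

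GCLM and GCLC encode the subunits of a single enzyme, and the 250 bases before their transcription starts are shown for both. Whether these bases bear on how far each gene responded was not tested. The sequences are from RefSeq (GRCh38.p14), each read 5′ to 3′ on the gene's minus strand, at chr1:93909431-93909680 for GCLM and chr6:53545102-53545351 for GCLC. Capitals mark a match to TGACNNNGC, the core of the antioxidant response element, which was searched on both strands.
GCLM: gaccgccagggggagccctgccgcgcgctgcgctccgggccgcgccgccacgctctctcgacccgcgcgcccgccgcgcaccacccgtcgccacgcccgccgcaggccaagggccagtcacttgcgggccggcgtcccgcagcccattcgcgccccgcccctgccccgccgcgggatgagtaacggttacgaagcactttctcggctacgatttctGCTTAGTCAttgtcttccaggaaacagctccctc
GCLC: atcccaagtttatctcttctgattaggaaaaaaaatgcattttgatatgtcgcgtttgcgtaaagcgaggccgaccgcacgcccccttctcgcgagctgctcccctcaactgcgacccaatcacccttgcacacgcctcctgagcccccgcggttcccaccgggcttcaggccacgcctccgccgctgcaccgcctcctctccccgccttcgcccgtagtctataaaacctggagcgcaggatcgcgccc
The GCLM match lies at -34 to -26 from the start and reads TGACTAAGC on the opposite strand. The GCLC window holds none. Of the 9 genes, SLC7A11, GSS and ABCC1 had no window available, and GSR was left out of the search. Whether the core occurs before any of these genes was not tested. In the windows of the 5 genes searched (GCLC, GCLM, GPX1, GPX4 and MGST1), the core occurred in that of GCLM alone. It occurs in 10.9% of the 35116 such windows of all genes (3830 windows). The AP-1 site TGANTCA, on both strands, occurs in 6.6% of all windows (2308) and in none of the windows of these 5 genes. No match means only that these letters are not in this window.

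In the vehicle, per kilobase of mean transcript length, GPX1 was the most abundant of the 9 at 263 ± 5.13 CPM per kb (SD, n = 3 here and below), followed by GPX4 at 168 ± 5.02. MGST1 (62.8 ± 3.48), GSS (59.6 ± 0.749) and ABCC1 (55.6 ± 2.02) came next, with MGST1 and GSS closer than their spread. GCLM (39.8 ± 1.61) and GSR (36.6 ± 1.41) followed. GCLC (20.0 ± 0.578) and SLC7A11 (19.6 ± 0.359) were lowest and did not differ beyond their spread. The length was the unweighted mean over all annotated transcripts of a gene, from 2 for SLC7A11 to 28 for GSS. The SD covers the counts and not this length, so the order of the genes is approximate. All other levels below are CPM (expected counts scaled to a common TMM-normalised library total), which compare samples within a gene.

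**Figure D1:**
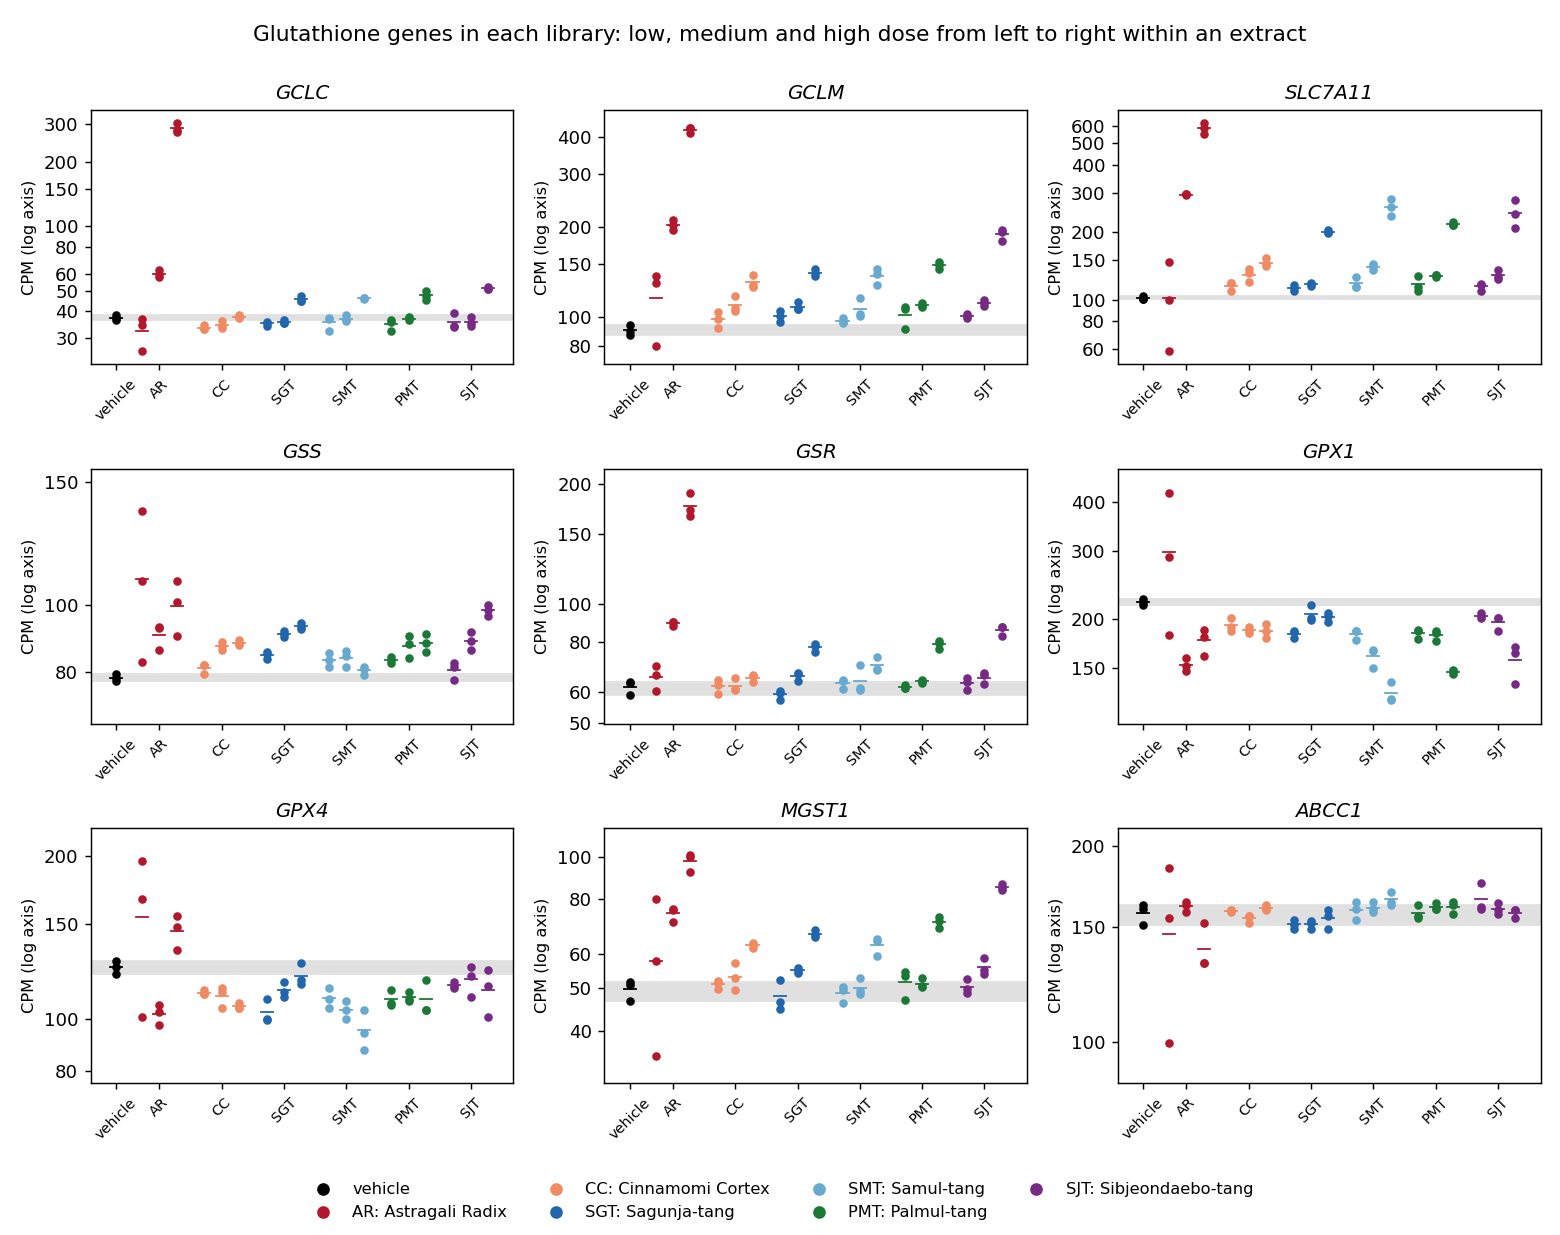
Levels of the 9 genes in CPM (log axis, a panel per gene) in the vehicle, at the left, and at the low, medium and high dose of 6 extracts. Points are libraries, short lines are group means and the grey band is the range of the vehicle. SLC7A11, GCLC, GCLM, GSR and MGST1 stand highest at Astragali Radix high, ABCC1 is nearly level, and Astragali Radix low is scattered for most genes.

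SLC7A11, the xCT light chain (ENSG00000151012, chr4:138164097-138242349, minus strand, GRCh38 with GENCODE 29 as for the other genes), had 550, 586 and 616 CPM in the Astragali Radix high libraries, against 104, 101 and 101 CPM in the vehicle libraries. All treated libraries lay far above the vehicle, a 5.72-fold rise (log2 2.52 ± 0.14 SE, edgeR quasi-likelihood test, adjusted p = 3.79e-21). At the medium dose the libraries held 297, 296 and 293 CPM, 2.89-fold the vehicle mean of 102 CPM (log2 1.53 ± 0.13, adjusted p = 2.31e-12). SLC7A11 also rose at the high dose of each other extract. Samul-tang high had 259, 282 and 238 CPM against the same vehicle values, a 2.54-fold rise (log2 1.35 ± 0.13, adjusted p = 1.32e-10). Sibjeondaebo-tang high had 242, 278 and 210 CPM (2.38-fold, log2 1.25 ± 0.13, adjusted p = 4.84e-10). Palmul-tang high (215, 217 and 222 CPM, 2.13-fold) and Sagunja-tang high (202, 199 and 205 CPM, 1.98-fold) followed, with adjusted p = 1.35e-08 and 1.36e-07. The smallest rise was in Cinnamomi Cortex high at 142, 153 and 144 CPM (1.43-fold, log2 0.52 ± 0.13, adjusted p = 0.00371). In the order of group means, Astragali Radix high (584 ± 33.0 CPM) and medium (295 ± 2.14) stood apart, while Samul-tang high (260 ± 22.1) and Sibjeondaebo-tang high (243 ± 34.4) overlapped. Over all doses, 55 of 57 extract libraries lay above all 3 vehicle libraries, the exceptions being Astragali Radix low replicates 1 (99.7 CPM) and 2 (59.1 CPM). The code that sets the vehicle apart goes with this difference, and such libraries were not counted over all genes. The group of Astragali Radix low, with replicate 3 at 148 CPM, did not pass the test with all libraries and was higher than the vehicle by log2 0.55 without replicates 1 and 2 (adjusted p = 1.12e-05). It was called higher without replicate 2 alone and lower without replicate 3 (log2 0.28 and -0.38, adjusted p = 0.0185 and 0.00183). Among the lower doses of the other extracts, Samul-tang medium passed the test (136, 144 and 141 CPM, log2 0.46 ± 0.13, adjusted p = 0.0148). The antisense gene SLC7A11-AS1 shares 865 exon bases (9.0%) with SLC7A11, at a mean count of 44.3.

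GCLC, the catalytic subunit of the ligase (ENSG00000001084, chr6:53497341-53616970, minus strand), had 277, 283 and 306 CPM in Astragali Radix high, against 36.3, 38.4 and 37.1 CPM in the vehicle. This 7.74-fold rise was the largest of the 9 genes (log2 2.95 ± 0.07, adjusted p = 2.35e-34). The medium dose had 62.7, 59.6 and 58.2 CPM, a 1.61-fold rise (log2 0.69 ± 0.07, adjusted p = 1.85e-10). All libraries of both doses lay above the vehicle. At the high doses of the formulas GCLC was 1.23 to 1.38-fold the vehicle, with 51.0, 51.2 and 51.8 CPM in Sibjeondaebo-tang high (log2 0.46 ± 0.07, adjusted p = 1.64e-06). Palmul-tang high had 47.4, 45.4 and 50.1 CPM, Samul-tang high 45.8, 46.4 and 46.1 CPM and Sagunja-tang high 45, 44.7 and 47.3 CPM, and each passed the test with its libraries above the vehicle (adjusted p = 0.000155, 0.00105 and 0.00131). Cinnamomi Cortex high, with 37.4, 37.5 and 38.5 CPM, overlapped the vehicle (log2 0.02). At the low doses 14 of 19 libraries lay below all vehicle libraries, but Astragali Radix low was the only low-dose group called (log2 -0.20 ± 0.07, adjusted p = 0.0219), and that call was lost without its replicates 1 and 2 (log2 0.00, adjusted p = 0.988), without replicate 2 alone (-0.07, adjusted p = 0.377) and without vehicle replicate 2 (-0.18, adjusted p = 0.0673). The lincRNA AL033397.1 shares 529 exon bases (6.1%) with GCLC on the same strand, at a mean count of 1.1.

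GCLM, the modifier subunit (ENSG00000023909, chr1:93885205-93909456, minus strand), had 429, 430 and 412 CPM in Astragali Radix high, against 89.7, 86.8 and 94.1 CPM in the vehicle, a 4.70-fold rise (log2 2.23 ± 0.10, adjusted p = 5.85e-25). Its medium-dose libraries held 211, 204 and 195 CPM (2.26-fold, log2 1.17 ± 0.09, adjusted p = 1.51e-13). GCLM passed the test against the vehicle in 11 of 18 groups, more than any other member. Sibjeondaebo-tang high had 179, 195 and 193 CPM (2.09-fold, log2 1.07 ± 0.09, adjusted p = 2.45e-12), and Palmul-tang high had 145, 149 and 153 CPM (1.65-fold, adjusted p = 5.47e-08). Sagunja-tang high (145, 137 and 140 CPM, 1.56-fold), Samul-tang high (139, 145 and 128 CPM, 1.52-fold) and Cinnamomi Cortex high (128, 126 and 138 CPM, 1.45-fold) rose with adjusted p = 7.95e-07, 3.35e-06 and 3.49e-05. It also passed at the medium dose of Cinnamomi Cortex (105, 107 and 118 CPM, log2 0.29), Palmul-tang (108, 109 and 111 CPM, 0.28) and Sibjeondaebo-tang (109, 114 and 111 CPM, 0.31), with adjusted p = 0.0288, 0.0454 and 0.0373. Astragali Radix low, with 137, 79.8 and 130 CPM, was called higher with all libraries (log2 0.36 ± 0.09, adjusted p = 0.00157) and without replicates 1 and 2 (log2 0.55, adjusted p = 5.74e-07), but not without replicate 1 alone (log2 0.22, adjusted p = 0.0522). Of the 57 extract libraries 54 lay above all vehicle libraries, and the code of the vehicle goes with this difference too.

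The ratio of GCLC to GCLM moved in both directions. It was 0.682 ± 0.0535 in Astragali Radix high, against 0.414 ± 0.0253 in the vehicle (ratio of CPM values, not per length). In Astragali Radix medium it was 0.296 ± 0.00352, in Cinnamomi Cortex high 0.290 ± 0.00931 and in Sibjeondaebo-tang high 0.272 ± 0.0109. The ratio lay above the vehicle in each Astragali Radix high library. In every other extract group, low doses included, its mean lay below that of the vehicle, between 0.272 and 0.366, and the code that sets the vehicle apart goes with this difference. No test was made of these ratios.

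GSS, which completes glutathione (ENSG00000100983, chr20:34928433-34956027, minus strand), had small changes. It had 108, 101 and 90.1 CPM in Astragali Radix high, against 78.5, 79.7 and 77.7 CPM in the vehicle (1.27-fold, log2 0.34 ± 0.08, adjusted p = 0.000102). The rise was 1.25-fold in Sibjeondaebo-tang high (96.3, 98.3 and 100 CPM, adjusted p = 0.00125) and 1.18-fold in Sagunja-tang high (92.9, 92.2 and 94.2 CPM, adjusted p = 0.0144). In Samul-tang high, with 81.0, 79.4 and 81.4 CPM, it overlapped the vehicle (log2 0.04). Over all doses 53 of 57 extract libraries lay above all vehicle libraries, with 19 of 19 at the medium and 17 of 19 at the low dose. The code of the vehicle goes with this difference as well. Astragali Radix low passed at log2 0.47 ± 0.08 (108, 136 and 82.7 CPM, adjusted p = 4.14e-06) and not without replicates 1 and 2 (log2 0.09, adjusted p = 0.298).

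GSR, which recycles oxidised glutathione (ENSG00000104687, chr8:30678061-30727999, minus strand), had 166, 172 and 190 CPM in Astragali Radix high, against 59.0, 63.0 and 63.3 CPM in the vehicle, a 2.85-fold rise (log2 1.51 ± 0.05, adjusted p = 3.3e-28). At the medium dose it had 87.9, 89.7 and 90.1 CPM (1.45-fold, log2 0.53 ± 0.05, adjusted p = 1.23e-10). In Sibjeondaebo-tang high GSR had 82.8, 87.5 and 87.3 CPM (1.39-fold, adjusted p = 1.73e-09). It rose 1.28-fold in Palmul-tang high, 1.26-fold in Sagunja-tang high and 1.13-fold in Samul-tang high (adjusted p = 1.39e-06, 4.18e-06 and 0.0111). The Samul-tang call was lost without vehicle replicate 1 or its own replicate 2 (adjusted p = 0.0637 and 0.0699). All 19 high-dose extract libraries exceeded the vehicle, and Cinnamomi Cortex high was not called (65.9, 63.6 and 65.7 CPM, log2 0.08).

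GPX1, the abundant cytosolic peroxidase (ENSG00000233276, chr3:49357171-49358600, minus strand), moved the other way. It had 124, 125 and 138 CPM in Samul-tang high, against 226, 218 and 221 CPM in the vehicle, 0.583 times the vehicle level (log2 -0.78 ± 0.12, adjusted p = 4.45e-06). Palmul-tang high had 148, 145 and 147 CPM (0.662 times, adjusted p = 0.00023) and Sibjeondaebo-tang high 164, 136 and 170 CPM (0.706 times, adjusted p = 0.00157). Astragali Radix medium had 159, 152 and 147 CPM (0.688 times, adjusted p = 0.000985) and Astragali Radix high 188, 180 and 161 CPM (0.795 times, adjusted p = 0.0140), the last call being lost without high replicate 3 (adjusted p = 0.0598). Sagunja-tang high (197, 204 and 208 CPM, log2 -0.13) and Cinnamomi Cortex high (194, 186 and 179 CPM, log2 -0.25) lay below all vehicle libraries without passing the test. In all, 55 of 57 extract libraries at all doses lay below all 3 vehicle libraries, so that even the 17 low-dose libraries outside Astragali Radix low replicates 1 and 2 were below, and here too the code separates the vehicle from the extracts, so its part cannot be told apart. Those replicates held 289 and 423 CPM and replicate 3 held 182 CPM. GPX1 was called higher in Astragali Radix low (log2 0.42 ± 0.12, adjusted p = 0.00400), not called without replicate 2 alone (log2 0.07, adjusted p = 0.579), and lower without replicates 1 and 2 (log2 -0.27, adjusted p = 0.00910) or after correction of every library for transcript length and GC content (log2 -0.12, adjusted p = 0.0270).

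GPX4, which protects membrane lipids (ENSG00000167468, chr19:1103926-1106791, plus strand), had 94.1, 87.6 and 104 CPM in Samul-tang high, against 128, 125 and 121 CPM in the vehicle (log2 -0.39 ± 0.10, adjusted p = 0.00623). It also fell in Astragali Radix medium (106, 103 and 97.3 CPM, log2 -0.29 ± 0.10, adjusted p = 0.0480), a call lost when any 1 of the 6 libraries was left out (adjusted p from 0.0653 to 0.153). The Samul-tang call was lost without high replicate 2 (adjusted p = 0.0576). In Astragali Radix high it had 155, 148 and 134 CPM, all above the vehicle, but missed the threshold (log2 0.22 ± 0.10, adjusted p = 0.0548), and it was -0.03 after length and GC correction (adjusted p = 0.656). In Astragali Radix low it had 167, 196 and 101 CPM and was called higher (log2 0.31 ± 0.10, adjusted p = 0.0148), but lower without replicates 1 and 2 (log2 -0.29, adjusted p = 0.0118), and not called without replicate 1 or 2 alone or vehicle replicate 3 (adjusted p from 0.0636 to 0.506). With mean transcripts of 740 and 843 bases and GC contents of 63.4% and 63.1%, GPX4 and GPX1 transcripts are short and GC-rich. Both genes have processed pseudogene copies elsewhere in the genome, and GPX1 is itself annotated as a polymorphic pseudogene in GENCODE 29, so the way RSEM divided shared reads makes their levels less certain. The rank correlation of log2 deviation with transcript length was -0.355, -0.282 and -0.455 in the Sibjeondaebo-tang high libraries. After the correction GPX1 in that group was at log2 -0.62 and GPX4 at -0.27 (adjusted p = 3.25e-15 and 0.000375), against -0.50 and -0.14 before it (adjusted p = 0.00157 for GPX1, GPX4 not called).

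MGST1, the membrane transferase (ENSG00000008394, chr12:16347142-16609259, plus strand), had 99.9, 101 and 92.3 CPM in Astragali Radix high, against 51.0, 51.8 and 46.7 CPM in the vehicle (1.96-fold, log2 0.97 ± 0.12, adjusted p = 4.93e-10). Sibjeondaebo-tang high came second with 84.0, 84.9 and 86.5 CPM (1.71-fold, log2 0.77 ± 0.12, adjusted p = 1.42e-06), ahead of Astragali Radix medium with 75.6, 76.0 and 70.9 CPM (1.49-fold, adjusted p = 0.000279). All 19 high-dose extract libraries lay above the vehicle, and the rises passed the test in Palmul-tang high (1.42-fold), Sagunja-tang high (1.34-fold), Samul-tang high (1.26-fold) and Cinnamomi Cortex high (1.26-fold), with adjusted p = 0.000932, 0.00592, 0.0339 and 0.0390. The Cinnamomi Cortex call was lost when any 1 of its 6 libraries, vehicle included, was left out (adjusted p from 0.0541 to 0.139), and the Samul-tang call without vehicle replicate 1 or 3 or its own replicate 2 or 3 (0.0603 to 0.122). MGST1 transcripts are short (mean 793 bases), and the length and GC correction lowered its change to log2 0.65 in Astragali Radix high and 0.61 in Sibjeondaebo-tang high, both still called (adjusted p = 4.54e-14 and 1.03e-11).

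ABCC1, the exporter (ENSG00000103222, chr16:15949577-16143074, plus strand), was the most level of the 9. Astragali Radix high had 132, 132 and 152 CPM, against 162, 151 and 160 CPM in the vehicle, which overlap (log2 -0.19 ± 0.09, not called). Without Astragali Radix low replicates 1 and 2, and so with a smaller estimated spread, the same change was called (adjusted p = 7.03e-06), and after length and GC correction it was 0.01 (adjusted p = 0.819). At the high dose of the other extracts its log2 change was between -0.03 and 0.07, and 41 of 57 extract libraries lay within the range of the vehicle.

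Counted over the 9 genes, 7 passed the test in Astragali Radix high against the vehicle, where 68.2% of all genes tested were called. Of these, 6 were higher (32.6% of all genes) and 1 was lower (35.6%). The median log2 change of the 9 was 0.97, against -0.06 over all genes. At the medium dose, where 16.6% of all genes were called, 7 members passed, 5 higher (7.75% of all genes) and 2 lower (8.81%), with a median of 0.53, against 0.00 over all genes. Sibjeondaebo-tang high had 7 called, where 23.1% of all genes were, with 6 higher (11.2% of all genes), 1 lower (11.9%) and a median of 0.46. Samul-tang high had 7, where 19.7% of all genes were called, with 5 higher (9.37%), 2 lower (10.3%) and a median of 0.18. Palmul-tang high had 6, where 20.3% of all genes were called, with 5 higher (10.0%), 1 lower (10.2%) and a median of 0.35. Sagunja-tang high had 6, all higher (11.2% of all genes, and 22.7% either way), with a median of 0.29. Without replicate 2 of Samul-tang high its count was 4. Shares of all genes here and below come from the edgeR fit of all 57 libraries. None is given for other fits, which estimate the spread anew for all genes, so their counts have no background beside them. Cinnamomi Cortex high had 3, all higher (7.70% of all genes, and 16.3% either way, median 0.08), and 6 without Astragali Radix low replicates 1 and 2.

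Below the high doses few members passed in the fit of all 57 libraries. Counts from other fits in this paragraph have no share of all genes beside them, and a higher count there is not a result about these genes by itself. Samul-tang medium had 2, where 12.1% of all genes were called, with SLC7A11 higher (5.19% of all genes) and GPX1 lower (6.88%, log2 -0.46 ± 0.12). Cinnamomi Cortex medium had 1, higher (5.86% of all genes, and 13.0% either way), as had Palmul-tang medium (4.44% and 10.2%) and Sibjeondaebo-tang medium (2.31% and 5.76%), and Sagunja-tang medium had 0 (13.5% either way). Without Astragali Radix low replicates 1 and 2 these counts were 5, 5, 5, 5 and 4. The 1 call in Palmul-tang medium and that in Sibjeondaebo-tang medium were lost without any 1 of their 6 libraries, vehicle included, and that in Cinnamomi Cortex medium without vehicle replicate 1 or 2 or its own replicate 3. Samul-tang medium had 1 call without vehicle replicate 3 and 0 without its own replicate 2. For Sagunja-tang medium DESeq2 called 1 member, and 2 had an unadjusted p below 0.05 in edgeR. At the low doses Astragali Radix had 5, where 40.7% of all genes were called, with 4 higher (21.6%) and 1 lower (19.2%). Its count was 3 without its replicate 1 and 0 in a fit of the vehicle and all Astragali Radix doses alone. The other low doses had 0: Cinnamomi Cortex (13.2% of all genes), Samul-tang (11.3%), Sagunja-tang (14.1%), Palmul-tang (9.84%) and Sibjeondaebo-tang (9.61%). Without the same replicates these counts were 4, 3, 4, 4 and 2, and with DESeq2 they were 0 in each of these 5 groups. At an unadjusted p below 0.05 the edgeR counts at these low doses were 1, 1, 2, 1 and 0.

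**Figure D2:**
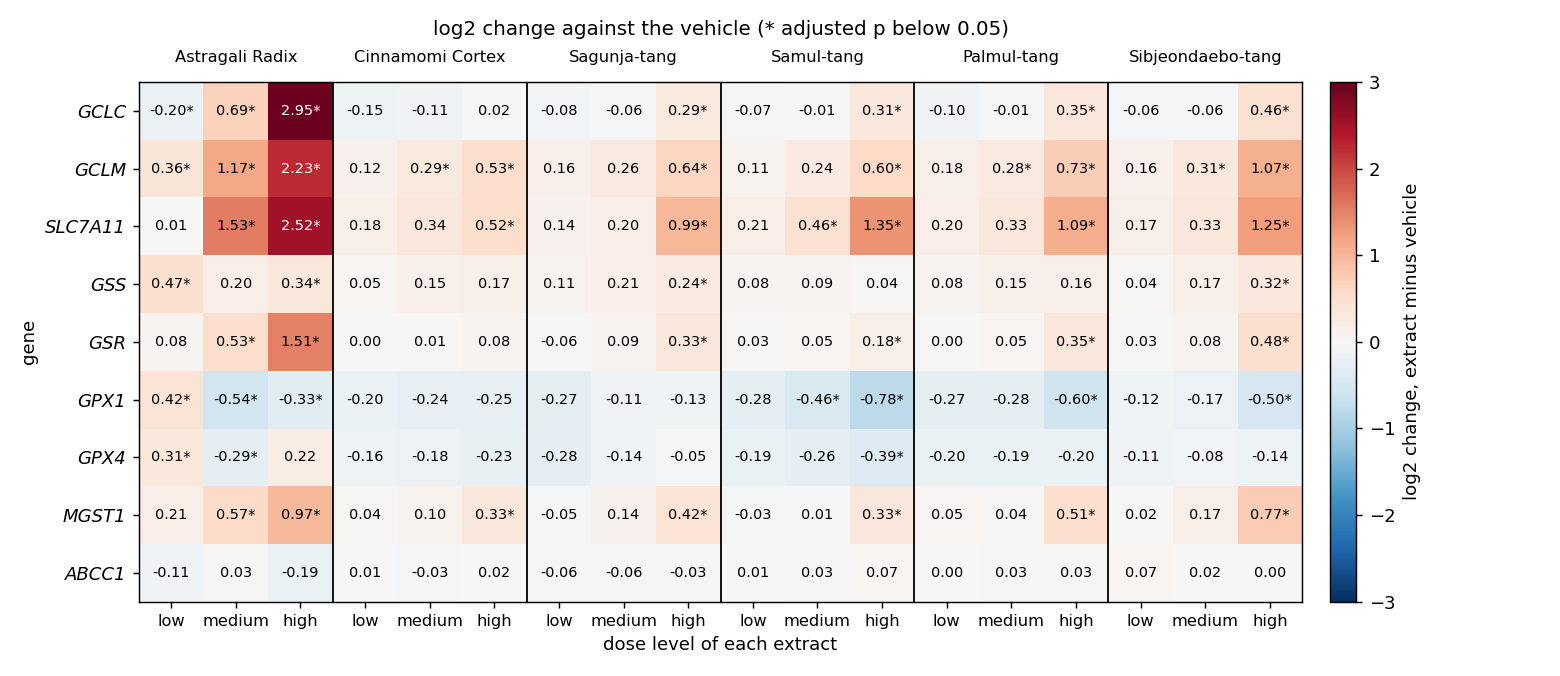
Log2 change (colour and number) of each gene against the vehicle in edgeR, with genes in rows and the low, medium and high dose of 6 extracts in columns, where an asterisk marks an adjusted p below 0.05. At Astragali Radix high GCLC (2.95), SLC7A11 (2.52) and GCLM (2.23) reach the largest changes, while GPX1 lies below 0 at each high dose.

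The dose trends compare the high with the low dose of an extract and are given per 5-fold dose step, as a log2 change. In Sibjeondaebo-tang 7 of 9 members passed, where 21.3% of all genes were called, with 6 rising (10.6% of all genes) and 1 falling (10.7%) with dose. SLC7A11 rose by 0.54 ± 0.07 per step, with 117, 110 and 118 CPM at the low dose, 126, 136 and 124 CPM at the medium and 242, 278 and 210 CPM at the high dose (adjusted p = 2.36e-08). GCLM rose by 0.45 ± 0.05 (101, 102 and 99.4 CPM at the low dose, adjusted p = 3.16e-10) and MGST1 by 0.38 ± 0.06 (49.9, 48.8 and 52.5 CPM at the low dose, adjusted p = 3.13e-06). The low-dose and high-dose libraries of these genes did not overlap, and the medium dose lay nearer to the low one. GCLC (0.26 ± 0.03), GSR (0.22 ± 0.03) and GSS (0.14 ± 0.04) rose less, and GPX1 fell by 0.19 ± 0.06 (adjusted p = 1.89e-07, 1.07e-08, 0.00470 and 0.0170), a call lost without high replicate 2 (-0.14, adjusted p = 0.120). Library composition also changed with dose in this extract: the rank correlation of log2 deviation with transcript length was -0.355, -0.282 and -0.455 in the high-dose libraries, against 0.265, 0.251 and 0.313 in the low-dose ones. After length and GC correction the same 7 were called and GPX4 was added (-0.13, adjusted p = 0.000416), with SLC7A11 at 0.62 and MGST1 at 0.29.

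In Palmul-tang 5 members rose with dose and none fell, where 3.68% of all genes were called and 1.92% rose. They were SLC7A11 (0.45 ± 0.06 per step), GCLM (0.28 ± 0.05), GCLC (0.23 ± 0.03), MGST1 (0.23 ± 0.06) and GSR (0.18 ± 0.03), with adjusted p = 3.73e-06, 4.57e-05, 1.03e-05, 0.0108 and 4.43e-06. Sagunja-tang had the same 5, where 3.78% of all genes were called and 2.06% rose: SLC7A11 (0.42 ± 0.06), GCLM (0.24 ± 0.05), MGST1 (0.24 ± 0.06), GSR (0.20 ± 0.03) and GCLC (0.19 ± 0.03). The MGST1 call was lost in Palmul-tang without high replicate 1 or low replicate 3 (adjusted p = 0.0503 and 0.106), and in Sagunja-tang without low replicate 3 (0.0663). In Samul-tang, where 1.41% of all genes were called, 3 members rose (0.747% of all genes) and 1 fell (0.662%). SLC7A11 rose by 0.57 ± 0.07, GCLM by 0.25 ± 0.05 and GCLC by 0.19 ± 0.03, while GPX1 fell by 0.25 ± 0.06 (adjusted p = 5.09e-08, 0.000584, 0.00055 and 0.0146). The GPX1 call was lost without high replicate 1 or 2 or low replicate 1 or 3 (adjusted p from 0.0569 to 0.0942). The counts that follow from fits without certain libraries have no share of all genes beside them. Without Astragali Radix low replicates 1 and 2 the Samul-tang count was 7. In Cinnamomi Cortex, where 0.441% of all genes were called and 0.243% rose, GCLM alone passed (0.21 ± 0.05, adjusted p = 0.0162). That call was lost without high replicate 1 or 3 or low replicate 1 or 2, and the count was 3 without the Astragali Radix low replicates 1 and 2.

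In Astragali Radix 6 members had a called trend, where 70.0% of all genes were called, with 5 rising (31.3% of all genes) and 1 falling (38.7%). GCLC rose by 1.58 ± 0.04 per step (34.4, 26 and 36.9 CPM at the low dose, adjusted p = 3.33e-35), SLC7A11 by 1.25 ± 0.07, GCLM by 0.93 ± 0.05, GSR by 0.71 ± 0.03 and MGST1 by 0.38 ± 0.06. GPX1 fell by 0.38 ± 0.06. This trend rests in part on the low-dose libraries that stood apart. Without replicates 1 and 2, GCLC (1.47), SLC7A11 (0.98), GCLM (0.84), GSR (0.76) and MGST1 (0.37) still rose, but the fall of GPX1 was no longer called (-0.03, adjusted p = 0.493). In that fit GSS (0.13) and GPX4 (0.25) rose as well, against -0.06 and -0.04 with all libraries, which were not called, and ABCC1 fell (-0.09, adjusted p = 0.00175). After length and GC correction in all libraries GPX1 fell by 0.21 (adjusted p = 6.98e-12).

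**Figure D3:**
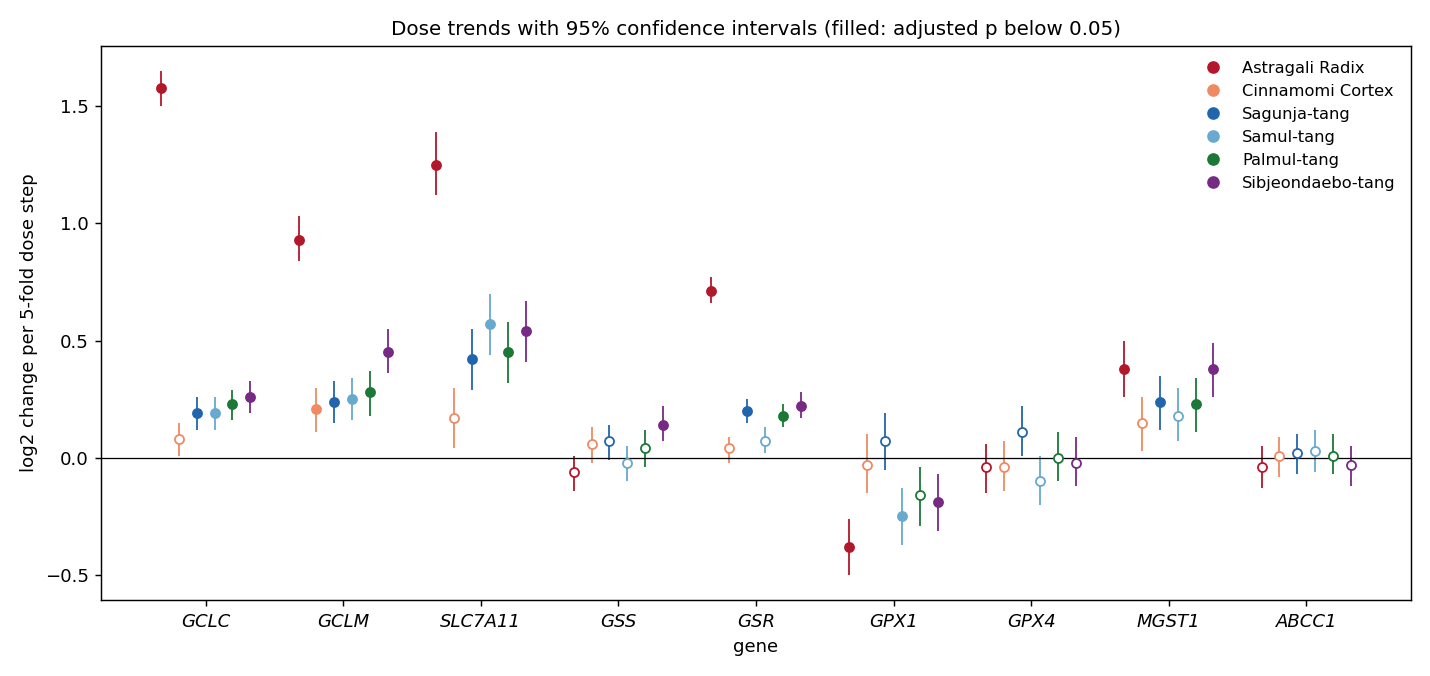
Dose trends of the 9 genes in 6 extracts, as log2 change per 5-fold dose step (edgeR, with 95% confidence intervals, no vehicle library in the contrast), where filled points passed the test. SLC7A11 and GCLM have positive slopes in each extract, from 0.17 and 0.21 in Cinnamomi Cortex to 1.25 and 0.93 in Astragali Radix, with that of SLC7A11 in Cinnamomi Cortex not called.

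The step between the upper doses of Astragali Radix contrasts neither the vehicle nor the low-dose libraries, although the spread among low-dose libraries enters its test. Between the high and the medium dose, GCLC differed most at 4.79-fold (log2 2.26 ± 0.07, adjusted p = 1.95e-30). GCLM (2.08-fold), SLC7A11 (1.98-fold) and GSR (1.97-fold) differed to a like extent, with log2 changes of 1.06 ± 0.09, 0.98 ± 0.13 and 0.98 ± 0.05 and adjusted p = 4.3e-14, 5.15e-09 and 2.35e-21. GPX4 was also higher (1.43-fold, adjusted p = 3.15e-05), as was MGST1 (1.32-fold, adjusted p = 0.00210). ABCC1 was lower (132, 132 and 152 CPM at the high dose, against 158, 162 and 164 CPM at the medium dose, log2 -0.22 ± 0.09, adjusted p = 0.0290), a call lost after length and GC correction (log2 -0.08, adjusted p = 0.128) and when high replicate 1 or 2 or medium replicate 2 or 3 was left out (adjusted p between 0.0515 and 0.0867). In all 7 of 9 were called, where 66.4% of all genes were, with 6 higher (32.6% of all genes) and 1 lower (33.9%). In a fit of the Astragali Radix libraries alone, low dose included, 4 were called. GCLC rose more over the upper step than from the vehicle to the medium dose (log2 2.26 and 0.69), while SLC7A11 did the reverse (0.98 and 1.53), which was not tested as a difference.

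The formulas were compared at the same high dose. Shares of all genes again come from the fit of all 57 libraries alone. Sibjeondaebo-tang against Palmul-tang gave 1 called member, higher in Sibjeondaebo-tang, where 5.45% of all genes were called and 1.75% were higher. GCLM had 179, 195 and 193 CPM in Sibjeondaebo-tang high, against 145, 149 and 153 CPM in Palmul-tang high (log2 0.34 ± 0.09, adjusted p = 0.0176), and the libraries did not overlap. The call was lost when Palmul-tang high replicate 1 or 2 or Sibjeondaebo-tang high replicate 2 or 3 was left out (adjusted p from 0.0501 to 0.100). MGST1 was at 84.0, 84.9 and 86.5 CPM against 72.8, 71.4 and 68.6 CPM (log2 0.26, 95% interval 0.04 to 0.49, adjusted p = 0.176) and SLC7A11 at log2 0.16 (-0.10 to 0.42). Without Astragali Radix low replicates 1 and 2, 5 members were called higher in Sibjeondaebo-tang: GCLM, MGST1, GSS, GSR and SLC7A11.

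Palmul-tang against Sagunja-tang also gave 1 called member, where 0.916% of all genes were called and 0.526% were lower in Palmul-tang. GPX1 had 148, 145 and 147 CPM in Palmul-tang high, against 197, 204 and 208 CPM in Sagunja-tang high (log2 -0.47 ± 0.12, adjusted p = 0.0382). The libraries were well apart, yet the adjusted p rose above 0.05 when any 1 of the 6 libraries was left out (0.0825 to 0.168). SLC7A11 (log2 0.11, 95% interval -0.15 to 0.36), GCLM (0.09, -0.10 to 0.27) and GCLC (0.06, -0.08 to 0.20) were not called. Palmul-tang against Samul-tang gave 0 called members in edgeR and 1 in DESeq2, where 1.69% of all genes were called in edgeR, and 1 of the 9 had an unadjusted p below 0.05. The largest differences were in SLC7A11 (log2 -0.25, -0.51 to 0.00) and GPX4 (0.19, -0.02 to 0.40). Without Astragali Radix low replicates 1 and 2 the count was 6, among them SLC7A11, lower in Palmul-tang, and GSR, higher in Palmul-tang. The Palmul-tang code differs from the one that Sagunja-tang and Samul-tang have in common, and in these comparisons an effect of the code and of the formula cannot be told apart.

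Sagunja-tang and Samul-tang share a label code. Here 2 members were called, where 4.70% of all genes were and 2.47% were higher in Sagunja-tang. GPX1 had 197, 204 and 208 CPM in Sagunja-tang high, against 124, 125 and 138 CPM in Samul-tang high (log2 0.65 ± 0.12, adjusted p = 0.00026). GPX4 had 116, 118 and 127 CPM, against 94.1, 87.6 and 104 CPM (log2 0.34 ± 0.10, adjusted p = 0.0477). Both genes were higher in Sagunja-tang with no overlap of libraries, and the GPX4 call was lost when any 1 library except Samul-tang high replicate 3 was left out (adjusted p from 0.0775 to 0.243). GCLC (log2 -0.01, 95% interval -0.15 to 0.12) and GCLM (0.04, -0.15 to 0.22) were not called. SLC7A11 was lower in Sagunja-tang at 202, 199 and 205 CPM, against 259, 282 and 238 CPM, with adjusted p = 0.103 in all libraries and 9.35e-06 without Astragali Radix low replicates 1 and 2 (log2 -0.36 and -0.37).

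**Figure D4:**
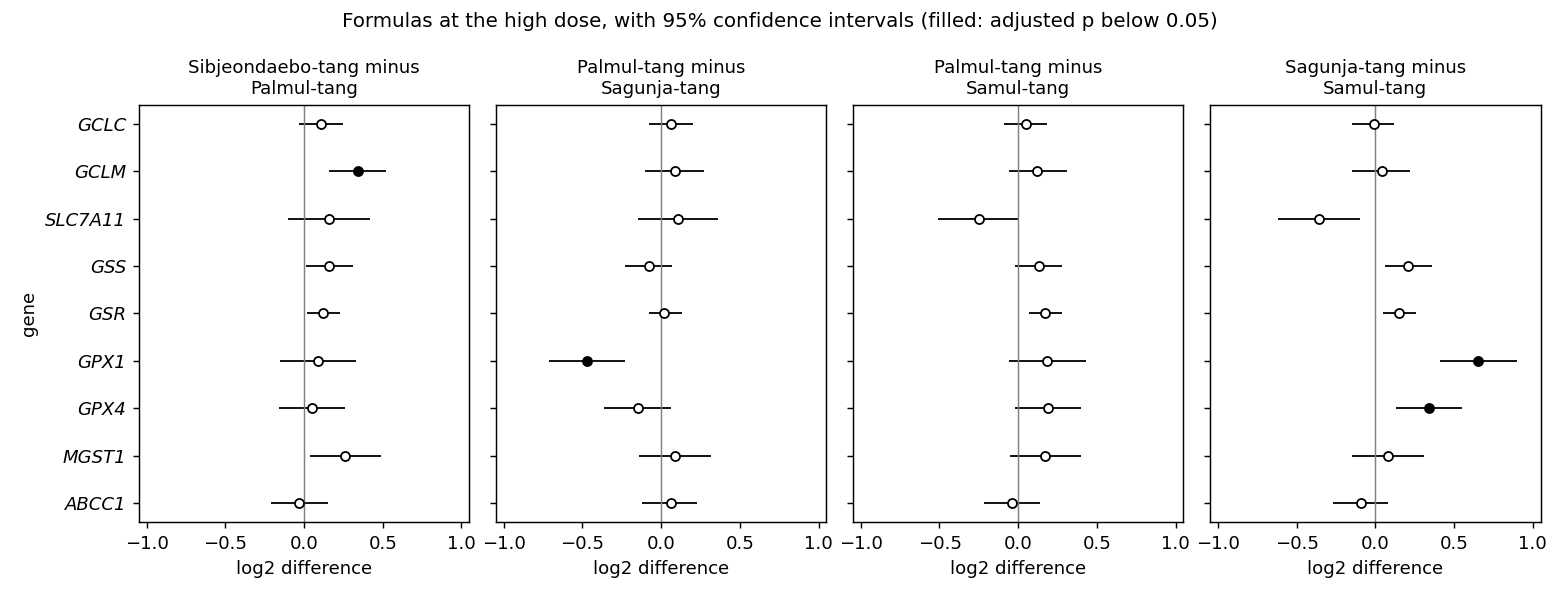
Differences between formulas at 500 µg/mL for the 9 genes (log2, edgeR, with 95% confidence intervals), where filled points passed the test. GCLM is higher in Sibjeondaebo-tang than in Palmul-tang (0.34), and GPX1 is lower in Palmul-tang than in Sagunja-tang (-0.47) and higher in Sagunja-tang than in Samul-tang (0.65).

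Dose trends were also compared between formulas, with 0 of 9 called for Sibjeondaebo-tang minus Palmul-tang (1.06% of all genes called), Palmul-tang minus Sagunja-tang (0.238%) and Palmul-tang minus Samul-tang (0.124%). At an unadjusted p below 0.05 the count was 1 in each, and with DESeq2 it was 0 in each after adjustment. The GCLM trend was steeper in Sibjeondaebo-tang than in Palmul-tang by 0.18 (95% interval 0.05 to 0.31, adjusted p = 0.183), and without Astragali Radix low replicates 1 and 2 that difference, with those of MGST1 (0.15) and GSS (0.10), was called (adjusted p = 0.000604, 0.00255 and 0.00476). For GPX1 the Palmul-tang trend lay below that of Sagunja-tang by -0.24 (-0.41 to -0.07, adjusted p = 0.671), called without the same replicates (adjusted p = 6.62e-05). For SLC7A11 the intervals of the 3 differences were -0.09 to 0.28, -0.16 to 0.21 and -0.30 to 0.06.

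Around the 9 genes, 61 further genes of glutathione metabolism and its regulation were listed, of which 58 were tested. In Astragali Radix high against the vehicle 33 rose and 16 fell (68.2% of all genes called, median log2 0.54, against -0.06 over all genes). Of the 9 genes that supply cystine, cysteine or methionine, 7 rose and 2 fell (median 1.60). SLC3A2, the heavy chain that carries SLC7A11 to the membrane, averaged 2220 CPM, against 152 CPM in the vehicle (log2 3.86 ± 0.09, adjusted p = 1.27e-35). The amino acid transporter genes SLC7A5 (2.30 ± 0.05), SLC1A4 (2.45 ± 0.06) and SLC1A5 (1.60 ± 0.05) rose too. CHAC1, which degrades glutathione, averaged 165 CPM, against 6.33 CPM (log2 4.70 ± 0.11, adjusted p = 1.28e-35), in a breakdown list where 4 of 10 rose and 2 fell. All 7 regulators rose (median 2.55): ATF4 (2.97 ± 0.09), the small MAF partners of NRF2 encoded by MAFF (3.36 ± 0.08), MAFG (2.55 ± 0.06) and MAFK (2.56), the repressor gene BACH1 (2.32 ± 0.09), NFE2L2, which encodes NRF2 (1.22 ± 0.13), and KEAP1, whose protein holds NRF2 back (1.20 ± 0.09). Transferases rose in 7 of 13 and fell in 5, peroxidases rose in 2 of 4 and fell in 1, glutaredoxin and glyoxalase genes rose in 4 of 8 and fell in 2, and transport genes rose in 2 of 7 and fell in 4.

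At Astragali Radix medium 12 of the 58 rose and 6 fell (16.6% of all genes). SLC3A2 rose by log2 0.80 ± 0.08 and CHAC1 by 0.43 ± 0.11 (adjusted p = 1.23e-10 and 0.00394), while ATF4 (-0.07 ± 0.08) and NFE2L2 (-0.30 ± 0.13) did not pass. At Sibjeondaebo-tang high 22 rose and 4 fell (23.1% of all genes), with SLC3A2 at 272 CPM, against 152 CPM in the vehicle (log2 0.84 ± 0.08, adjusted p = 2.32e-11), and ATF4 (-0.06 ± 0.08) and NFE2L2 (-0.21 ± 0.13) not called. Of the 58, 20 rose and 2 fell with the dose of Sibjeondaebo-tang (21.3% of all genes), SLC3A2 by 0.40 ± 0.04 per step (adjusted p = 1.22e-10), SLC7A5 and SLC1A5 by 0.24 each, CHAC1 by 0.24 ± 0.05 and KEAP1 by 0.19 ± 0.04. With the dose of Palmul-tang 8 rose and 0 fell (3.68% of all genes), of Sagunja-tang 7 and 0 (3.78%), of Samul-tang 7 and 0 (1.41%), and of Cinnamomi Cortex 1 and 0 (0.441%). SLC3A2 rose by 0.31 ± 0.04 in both Palmul-tang and Sagunja-tang and by 0.16 ± 0.04 in Samul-tang (adjusted p = 1.9e-07, 2.9e-07 and 0.0218). In Cinnamomi Cortex its slope was 0.13 ± 0.04 (adjusted p = 0.174), and the gene called was that of the exporter ABCC3 (0.17 ± 0.04, adjusted p = 0.0166). BACH1 was not called in the dose trend of any of the 4 formulas or Cinnamomi Cortex, nor was NFE2L2.

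Among all genes tested, those whose means over the 19 groups of 3 libraries ran most nearly in the order of GCLM were BEST1 (Spearman rho 0.981), TRIM16 (0.975) and NQO1 (0.954). For GCLC they were USP53 (0.926), ADAM17 (0.925) and IGF2BP3 (0.919), and for SLC7A11 they were SLC2A3 (0.960), SLC22A23 (0.944) and ZCCHC9 (0.942). Among the 9 members themselves, GCLM ran closest to MGST1 (rho 0.94, and 0.92 over the 16 groups without Astragali Radix) and to GSR (0.89 and 0.83). GCLM and SLC7A11 had rho 0.82 and 0.89, GCLC and GCLM 0.68 and 0.66, and GPX1 ran against SLC7A11 (-0.74 and -0.62) and with GPX4 (0.69 and 0.75). These are descriptions across group means of the same 57 libraries, scaled together, with no test. Differences between libraries enter both genes of a pair.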

How the data were processed

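The deposited table gives expected counts of 60675 genes, made by the authors with RSEM. It has 279 columns of values. The 60 that match these samples were read, and 219 were left out. Per the submitters' processing notes, reads passed FastQC 0.11.9 and Trim Galore 0.6.5, STAR 2.7.3a aligned them and RSEM 1.3.3 counted them on hg38 (GRCh38). The annotation release and the strand setting of the counting are not given in the sources used here. Per the labels' protocols, libraries came from a directional kit and paired-end MGIseq sequencing. Of the values 90.8% were whole (tolerance 1e-09), and the rest were rounded. Reads that fit several genes or copies were divided by RSEM, which can move counts between near-identical genes.

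All 57 libraries of the groups with 3 replicates were fitted with edgeR 4.0.16 in R 4.3.3 (quasi-likelihood F test, TMM, filterByExpr, 1 mean per group). A gene was called at a Benjamini-Hochberg adjusted p below 0.05 over all 17676 genes tested, with no minimum fold. The SE was taken from the F statistic, as the log2 change over the root of F. The dose trend is the high minus the low dose divided by 2, in log2 units. DESeq2 1.42.0, other scaling, no filter, a replicate block, fits of the compared extracts only, left-out libraries and a spline correction for transcript length and GC content (93.9% of genes had values) were alternatives. The fits of the compared extracts held all their doses, and the vehicle only where it was compared. The correction without Astragali Radix low replicates 1 and 2 was added after the data were seen. Replicate pairs all differed by more than sampling noise. The scripts were tested on simulated data.

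The members and lists were chosen with earlier results of these data known. All 9 members are named. Of the other 61 glutathione genes, those with the smallest adjusted p are named (up to 8 for Astragali Radix high, 3 for a dose trend), with SLC3A2, CHAC1, NFE2L2, KEAP1, BACH1 and ATF4 always, and the 3 genes most like GCLC, GCLM and SLC7A11. MAFK was named after its value was seen.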

Additional observations from a re-analysis of the deposited data

Results flagged for a closer look

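The single libraries of Rehmanniae Radix Preparata entered no comparison, since each dose had 1 library and no replicate check is possible. In them SLC7A11 and GCLM lay above the vehicle at each dose. SLC7A11 had 125 CPM at the low, 119 CPM at the medium and 184 CPM at the high dose, against 101 to 104 CPM in the vehicle, so that the lowest of the 3 was 119 CPM. GCLM had 95.8, 97.0 and 109 CPM in the same order, against 86.8 to 94.1 CPM in the vehicle, so that the lowest was 95.8 CPM. The label code of these libraries is shared by no vehicle library, so extract and code cannot be told apart.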

How the results depend on the processing

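Counts below are members called of 9. The share of all genes called in each of these fits is not given here, so a moved count is not a result about these genes by itself. Over the 288 values of a member in a comparison, RLE scaling changed 4 calls (284 kept), DESeq2 5 (283 kept), no filter 22 (266 kept), the length and GC correction 49 (239 kept), fits of the compared extracts alone 83 (205 kept) and leaving out Astragali Radix low replicates 1 and 2 changed 82 (206 kept). The replicate numbers were not taken to pair samples, since all 3 correlations passed 0.1 in 7 of 171 pairs of groups (median r 0.031 for the same number and -0.02 for others). As a hint from the data, 39 of 57 libraries lay closest to their own number, against 19 if each of the 3 numbers were as likely. The replicate block changed 1 call (GSS in Astragali Radix medium, log2 0.20, adjusted p = 0.0494) and moved no count by over 1.5 times.

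Without Astragali Radix low replicates 1 and 2, counts against the vehicle were 6, 5 and 4 for Cinnamomi Cortex high, medium and low, 4 and 4 for Sagunja-tang medium and low, 5 and 3 for Samul-tang, 5 and 4 for Palmul-tang and 5 and 2 for Sibjeondaebo-tang. The trends gave 3 for Cinnamomi Cortex and 7 for Samul-tang, the formulas 5 for Sibjeondaebo-tang minus Palmul-tang, 6 for Palmul-tang minus Samul-tang and 6 for Sagunja-tang minus Samul-tang, and the trend differences 3 (Sibjeondaebo-tang minus Palmul-tang) and 1 (Palmul-tang minus Sagunja-tang). With the length and GC correction the counts were 6, 5 and 2 for Cinnamomi Cortex, 2 and 3 for Sagunja-tang medium and low, 5 and 1 for Samul-tang, 4 and 1 for Palmul-tang, 4 for Sibjeondaebo-tang medium, 3 for the Cinnamomi Cortex trend, 3, 1 and 4 for the same formula pairs, and 3 and 1 for the trend differences. With both they were 6, 5 and 2, 2 and 4, 5 and 2, 4 and 3, and 4 in that order, 4 and 7 for the Cinnamomi Cortex and Samul-tang trends, 6, 5 and 6 for the formula pairs, and 5 and 1. With the compared extracts alone, Astragali Radix medium gave 4, Astragali Radix low 0, its high minus medium dose 4, Cinnamomi Cortex 6, 6 and 4, Sagunja-tang medium 6 and low 5, Samul-tang 4 and 3, Palmul-tang 5 and 4, Sibjeondaebo-tang 5 and 1, the Cinnamomi Cortex and Sagunja-tang trends 4 and 8, the formula pairs 4, 6 and 5, and the trend differences 3 and 1. With no filter, Cinnamomi Cortex medium gave 3, Sagunja-tang medium 1 and low 2, Samul-tang 4 and 1, Palmul-tang 3 and 1, Sibjeondaebo-tang medium 2, the Cinnamomi Cortex trend 2 and the trend difference of Palmul-tang and Sagunja-tang 1. DESeq2 gave 1 for Sagunja-tang medium and for Palmul-tang minus Samul-tang, and RLE 1 for Sagunja-tang minus Samul-tang. Apart from the fit without those 2 libraries, which changes the samples, the cause was not tested.

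Directions reversed in these cases, and the cause was not tested. In Astragali Radix low GPX1 was -0.27 without replicates 1 and 2, -0.12 with the correction and -0.22 with both, GPX4 was -0.29, -0.23 and -0.22, and SLC7A11 was -0.38 without replicate 3 and 0.28 without replicate 2. In the Astragali Radix trend GSS was 0.13 without those replicates and 0.10 with both, and GPX4 was 0.25, 0.10 with the correction and 0.09 with both. ABCC1 in Sibjeondaebo-tang high was 0.09 with both. These members were not called before, except GPX1 and GPX4 in Astragali Radix low.

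Leaving out 1 replicate at a time gave ranges against the vehicle of 7 to 8, 6 to 7 and 3 to 6 for Astragali Radix high, medium and low, 2, 0 to 1 and 0 for Cinnamomi Cortex, 6, 0 and 0 for Sagunja-tang, 4 to 7, 0 to 2 and 0 for Samul-tang, 6, 0 and 0 for Palmul-tang and 7, 0 and 0 for Sibjeondaebo-tang. The trends gave 6 to 8 (Astragali Radix), 0 to 1 (Cinnamomi Cortex), 4 to 5 (Sagunja-tang), 3 to 4 (Samul-tang), 4 to 5 (Palmul-tang) and 6 to 7 (Sibjeondaebo-tang), Astragali Radix high minus medium 6 to 8, and the formulas 0 to 1 (Sibjeondaebo-tang minus Palmul-tang), 0 (Palmul-tang minus Sagunja-tang), 0 (Palmul-tang minus Samul-tang) and 1 to 2 (Sagunja-tang minus Samul-tang), with 0 in each trend difference. Over 1890 such values 1801 kept their call. Changes of around 1.2-fold are at the limit of 3 libraries a group.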

Other observations

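In the same single libraries of Rehmanniae Radix Preparata, GPX1 lay below the vehicle at each dose, with 197 CPM at the low, 179 CPM at the medium and 155 CPM at the high dose, against 218 to 226 CPM in the vehicle. GPX4 had 110, 106 and 103 CPM, against 121 to 128 CPM. GCLC had 32.9 and 33.5 CPM at the low and medium dose, below the vehicle range of 36.3 to 38.4 CPM, and 39.8 CPM at the high dose, above it. ABCC1 lay within the vehicle range at all 3 doses (153 to 157 CPM, against 151 to 162 CPM). MGST1 lay within that range at the low and medium dose and at 54.3 CPM at the high dose, against at most 51.8 CPM in the vehicle.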
